A study of Homo sapiens with 6 samples.

Results

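The kinesin superfamily was described here in BE(2)-C, a human neuroblastoma cell line, as 42 genes of 14884 with a named probe set. A gene was a member if its probe set carried exactly 1 gene symbol and that symbol had the form KIF or KIFC followed by a number, with or without a letter. Of the members, 12 were grouped as mitotic kinesins (KIF2C, KIF4A, KIF11, KIF14, KIF15, KIF18A, KIF18B, KIF20A, KIF20B, KIF22, KIF23 and KIFC1). The other 30 include the motors of axonal and ciliary transport. The 42 genes had 48 probe sets, and each gene is represented by its brightest probe set, averaged over the 6 arrays. The symbol rule uses names alone. The mitotic members were chosen with earlier results of these data known, so their shared direction is not independent evidence.

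Both groups of samples were BE(2)-C_tetoff_KDM4C cells, which carry a tet-off construct of the histone demethylase KDM4C, grown in medium with dialysed serum. One group had doxycycline for 6 days, which keeps a tet-off construct silent, and the other had none, which lets it run. Each group had 3 arrays, called independent samples in the design text. Cells without the construct were not analysed here, so induction of KDM4C and withdrawal of doxycycline cannot be told apart, and the labels do not say whether the line is 1 clone.

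Kinesins are ATP-driven motors that walk along microtubules, most of them toward the growing plus end, or that take microtubule ends apart. The mitotic members build the spindle, align and hold chromosomes and assemble the midzone on which the cell divides, and their genes are known to be transcribed mostly late in the cell cycle. The transport members carry vesicles, mitochondria, RNA and ciliary cargo, and in neurons they supply axons and dendrites. A higher level in a bulk RNA sample can come from more dividing cells or from more RNA per cell, which cannot be told apart here.

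Values are log2 expression values, so a difference of 1 is a doubling, and differences are always no doxycycline minus doxycycline. "Called" means an adjusted p below 0.05 in limma, a linear model with moderated variances fitted to all 53617 probe sets. KDM4C was at 7.71, 7.77 and 7.80 with doxycycline and at 8.97, 9.08 and 9.02 without, a difference of 1.27 (SE 0.07, limma adjusted p = 0.00788). Its direction is that of the labels. Array medians lay between 3.94 and 3.96, and arrays correlated at 0.990 to 0.993. Of the neuroblastoma markers with a probe set, all 8 (among them PHOX2A, HAND2, GATA3, TH and DBH) lay above the median probe set. That bar is low, at 3.94, and S100B, EPCAM, KRT8 and LUM, markers of other cells, passed it too.

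All 12 mitotic kinesins had positive differences, while those of the other kinesins were centred near 0. The mitotic differences ran from 0.15 to 0.57 (1.11- to 1.48-fold higher without doxycycline), with a median of 0.35. KIF20A and KIF14, both motors of cytokinesis, rose past limma's threshold and 0 fell. Of all probe sets, 0.248% were called higher and 0.0933% lower. Before adjustment, 11 of the 12 had a p below 0.05 and were higher and 0 were lower, where 6.70% of all probe sets were higher and 5.73% lower. Among 9109 named genes above the median probe set, which all 12 are, 10.6% were higher at that level and 9.72% lower. In 11 of the 12 the 3 arrays without doxycycline all lay above the 3 with it, which held for 10.2% of all probe sets. The same held for 1416 of the 9109 named genes above the median probe set.

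Of the 30 other kinesins, 0 were called in limma in either direction, and 4 were higher and 2 lower when p below 0.05 is read without adjustment. Their median difference was -0.02, with 12 positive and 18 negative, and all named genes had a median of -0.002. The groups did not overlap in 4 others that were higher and 5 that were lower. Over all probe sets 10.2% and 9.09% were so. Among the 9109 named genes above the median probe set, 1416 were so higher and 1520 lower. Of the 20 other kinesins above it, 4 were so higher and 4 lower. The medians of the mitotic and the other kinesins were thus 0.37 apart. For 24 of the 30 the difference was smaller than 0.2 in size, against 2 of the 12 mitotic ones, KIF23 and KIF20B.

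**Figure D1:**
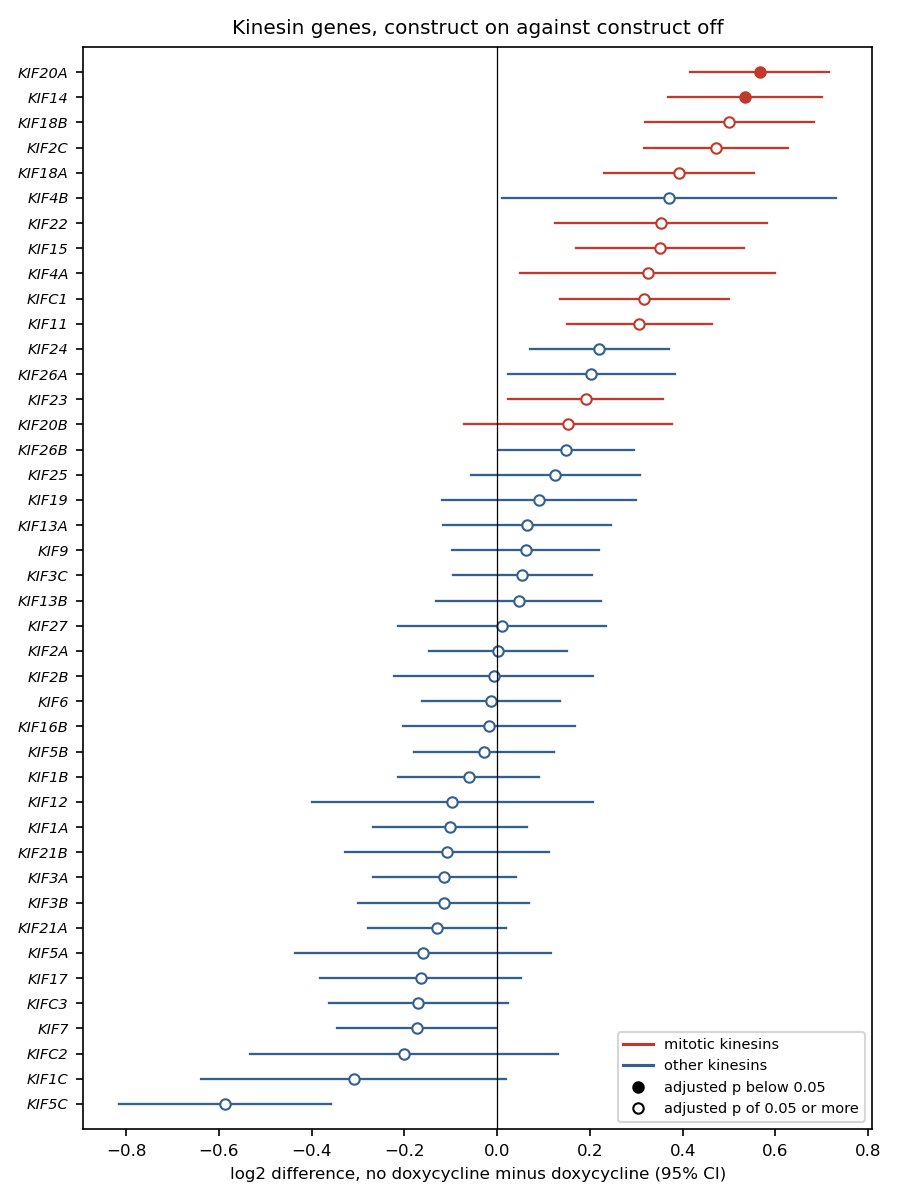
Log2 difference (no doxycycline minus doxycycline, horizontal axis) of the 42 kinesin genes with its 95% confidence interval, mitotic kinesins in red and the others in blue, filled where the limma adjusted p was below 0.05. The 12 mitotic genes lie between 0.15 and 0.57 and all are right of 0, while the others run from -0.59 (KIF5C) to 0.37 (KIF4B).

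The same shift was visible on each array. Measured from each gene's own mean over the 6 arrays, the mitotic kinesins averaged -0.18, -0.18 and -0.20 on the log2 scale on the doxycycline arrays and 0.15, 0.21 and 0.19 on those without. The 30 others averaged 0.01, 0.05 and -0.0048 with doxycycline and -0.0068, -0.05 and -0.0054 without. Without doxycycline, 11, 12 and 12 of the 12 mitotic genes were above their own mean, the exception being KIF4A on array 1, and with doxycycline 1, 0 and 0 were, the exception being KIF20B on array 1. The mean of the mitotic genes thus separated the groups on all 6 arrays by a wide gap. That of the other kinesins also separated them, with doxycycline higher, but only just. Its nearest arrays of the 2 groups almost coincided, at -0.0048 with and -0.0054 without doxycycline.

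**Figure D2:**
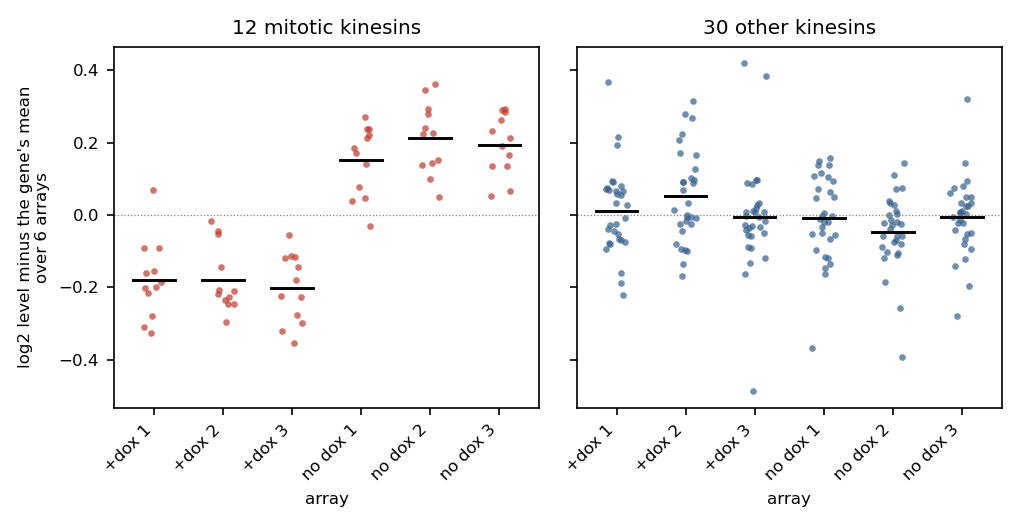
Deviation of each kinesin from its own mean over 6 arrays (log2, vertical axis) on every array, with the 12 mitotic kinesins left and the 30 others right. Points are genes and black bars the array's mean. In the left panel the bars lie at -0.20 to -0.18 with doxycycline and at 0.15 to 0.21 without, and in the right panel they lie between -0.05 and 0.05.

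The motors of the midzone and of cytokinesis spanned the widest range among the mitotic members. KIF20A, which brings the chromosomal passenger complex to the midzone at anaphase, was at 9.68, 9.67 and 9.68 with doxycycline and at 10.23, 10.31 and 10.19 without. Its 2 groups were far apart for their spread, and the difference of 0.57 (SE 0.06, 1.48-fold, limma adjusted p = 0.0307) was called. KIF14, a partner of citron kinase in abscission, was at 9.15, 9.13 and 9.01 with and at 9.58, 9.66 and 9.66 without doxycycline, a called difference of 0.53 (SE 0.07, 1.45-fold, limma adjusted p = 0.0469). Both calls needed all 6 arrays: with any 1 array left out, the limma adjusted p of KIF20A was 0.110 or more and that of KIF14 0.132 or more, while their differences stayed at 0.54 to 0.59 and 0.49 to 0.56.

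KIF23, the motor subunit of centralspindlin, and KIF20B, a further cytokinesis motor, belong with KIF20A to the kinesin-6 family. KIF23 was at 8.96, 9.03 and 8.87 with doxycycline and at 9.13, 9.19 and 9.12 without, a difference of 0.19 (95% confidence interval 0.02 to 0.36, limma adjusted p = 0.342). KIF20B was at 8.84, 8.52 and 8.71 with and 8.82, 8.82 and 8.90 without, and its groups overlapped (0.15, 95% confidence interval -0.07 to 0.38). Its difference was 0.07 when the array of doxycycline replicate 2 was left out and 0.23 when that of doxycycline replicate 1 was. Within the same arrays, the log2 ratio of KIF20A to KIF23 was 0.38 higher without doxycycline and that of KIF20A to KIF20B 0.41 higher. Neither ratio overlapped between the groups, and each gave the smallest p that a two-sided exact permutation test of 3 against 3 arrays allows, 0.1. These ratios, and 3 given further on, were chosen after the values were seen, so their separate groups are not independent evidence. Over the 5 the adjusted p is also 0.1, which does not account for pairs that could have been chosen instead.

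Motors that shorten microtubules and align chromosomes came next in size. KIF18B, which trims astral microtubules, was at 8.34, 8.43 and 8.42 with doxycycline and at 8.87, 9.01 and 8.81 without (0.50, SE 0.08, limma adjusted p = 0.0660). KIF2C, also known as MCAK, a depolymerase that corrects faulty kinetochore attachments, was at 7.21, 7.20 and 7.11 with and at 7.65, 7.69 and 7.60 without (0.47, SE 0.07, limma adjusted p = 0.0552). KIF18A, which damps the oscillation of chromosomes at the metaphase plate, was at 8.50, 8.45 and 8.55 with and 8.88, 8.84 and 8.96 without (0.39, SE 0.07, limma adjusted p = 0.0911). In each of the 3 genes the groups were separate, and none passed over the whole table. All 3 were called with trend and robust moderation of the variances (limma adjusted p = 0.0292, 0.0326 and 0.0401 in the same order). KIF18B and KIF2C were also called without dim probe sets (limma adjusted p = 0.0482 and 0.0393), and KIF2C after quantile normalization (limma adjusted p = 0.0491).

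Motors that set up the 2 spindle poles had similar, smaller differences. KIF11 (Eg5), whose tetramers push the poles apart, was at 10.06, 10.00 and 9.92 with doxycycline and at 10.32, 10.30 and 10.28 without (0.31, SE 0.07). KIF15, which backs up KIF11, was at 8.47, 8.43 and 8.54 with and at 8.80, 8.75 and 8.94 without (0.35, SE 0.08). KIFC1 (HSET), a minus-end motor that gathers poles together and clusters extra centrosomes, was at 7.40, 7.34 and 7.44 with and at 7.59, 7.78 and 7.76 without (0.32, SE 0.08). The limma adjusted p values were 0.146, 0.151 and 0.184. KIFC1 had 4 probe sets, of which 2, the one used here among them, held identical values. The third was at 0.33, and the fourth lay below the median probe set at -0.15. With all 4 averaged the difference of KIFC1 was 0.20.

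The chromokinesins, which bind chromosome arms, completed the group. KIF22 (Kid), which pushes chromosome arms away from the poles, was at 8.41, 8.52 and 8.25 with doxycycline and at 8.81, 8.81 and 8.62 without (0.35, SE 0.10, limma adjusted p = 0.225). KIF4A, which with PRC1 sets the length of the midzone, was at 7.60, 7.88 and 7.81 with and at 7.90, 8.15 and 8.22 without (0.32, SE 0.12, limma adjusted p = 0.326). Its highest doxycycline array, at 7.88, was just below its lowest array without doxycycline, at 7.90. The SD between replicates of KIF22 and KIF4A was 0.11 to 0.17.

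Promoters are shown because the mitotic members shared a direction and because genes of the G2 and M phases are known to carry 2 elements near their start site. One is the cell cycle genes homology region, bound by the DREAM and B-MYB complexes, read here as the letters TTTGAA or TTTAAA. The other is the box CCAAT, bound by NF-Y. Both strands were searched in windows of 250 bases before to 50 after the start site, from RefSeq (GRCh38.p14). The set of promoters used held all 12 mitotic and 22 of the 30 other kinesins. It lacked KIF5A, KIF13B, KIF19, KIF21B, KIF26B, KIF27, KIFC2 and KIFC3, so the letters were not searched in these. TTTGAA or TTTAAA was present for 11 of the 12 mitotic kinesins (91.7%) and for 3 of the 22 others (13.6%), against 27.8% of the 27305 genes of the table. Counted separately, TTTGAA was present for 9 of 12, 2 of 22 and 18.2%, and TTTAAA for 4 of 12, 1 of 22 and 14.5%. A gene could hold both, as KIF14 and KIF23 did. CCAAT was present for 10 of 12 and 8 of 22, against 39.7% of all genes, and both kinds of letters for 9 of 12 and 2 of 22, against 11.2%. The mitotic gene without either form of the homology letters in these windows was KIF22, which had CCAAT.

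In the 11 mitotic promoters with the letters, a match lay between 60 bases before and 50 after the start site, a range chosen after the matches were seen. Only 1 of the 22 others, KIF4B, had one there, and 10.2% of all genes did. The 30 bases around the match nearest the start site are given below 5′ to 3′ on the gene's strand, with the letters in capitals. TTCAAA is TTTGAA read on the other strand.
KIF20A, chr5:138179059-138179088, plus strand: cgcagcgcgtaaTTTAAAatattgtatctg
KIF14, chr1:200620733-200620762, minus strand: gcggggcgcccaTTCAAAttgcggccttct
KIF23, chr15:69414282-69414311, plus strand: ctgattggcccgTTTGAAatgcgccaggcg
KIF20B, chr10:89701602-89701631, plus strand: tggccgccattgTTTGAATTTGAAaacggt
KIF2C, chr1:44739822-44739851, plus strand: ttgcgcgcgggaTTTAAActgcggcggttt
KIF18A, chr11:28108149-28108178, minus strand: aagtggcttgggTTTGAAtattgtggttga
KIF18B, chr17:44947754-44947783, minus strand: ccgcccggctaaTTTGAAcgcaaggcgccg
KIF11, chr10:92593090-92593119, plus strand: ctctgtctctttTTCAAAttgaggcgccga
KIF15, chr3:44761747-44761776, plus strand: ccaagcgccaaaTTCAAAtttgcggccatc
KIFC1, chr6:33391815-33391844, plus strand: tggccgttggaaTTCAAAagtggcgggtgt
KIF4A, chrX:70290058-70290087, plus strand: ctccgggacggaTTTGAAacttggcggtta

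Counted from the start site, the first base of the match lay at -41 in KIF20A, -28 in KIF11, -35 in KIF15 and -34 in KIF4A. Those of KIF14, KIF18B and KIFC1 began 2, 3 and 5 bases after it, and KIF20B held 2 copies in direct succession, at 25 and 31. A CCAAT box stood upstream of the letters in 9 of the 11, most often 23 to 35 bases away counted between first bases (KIF14, KIF4A, KIF11, KIF20A, KIF18B and KIF18A). The distance was 9 in KIF23, 50 in KIFC1 and 122 in KIF20B. The 110 bases upstream of KIF20A and KIF11 show this layout, with CCAAT, written as ATTGG where it lies on the other strand, and the homology letters in capitals.
KIF20A, chr5:138179002-138179111, plus strand: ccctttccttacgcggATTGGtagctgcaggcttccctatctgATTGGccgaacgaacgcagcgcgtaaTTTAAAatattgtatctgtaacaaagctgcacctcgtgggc
KIF11, chr10:92593020-92593129, plus strand: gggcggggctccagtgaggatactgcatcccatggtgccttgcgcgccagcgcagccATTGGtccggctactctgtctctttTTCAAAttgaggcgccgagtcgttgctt
KIF20A and KIF20B, with differences of 0.57 and 0.15, both carried the 2 elements, and KIF22, at 0.35, carried 1. The letters are a description of sequence, and binding at these sites was not measured here.

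**Figure D3:**
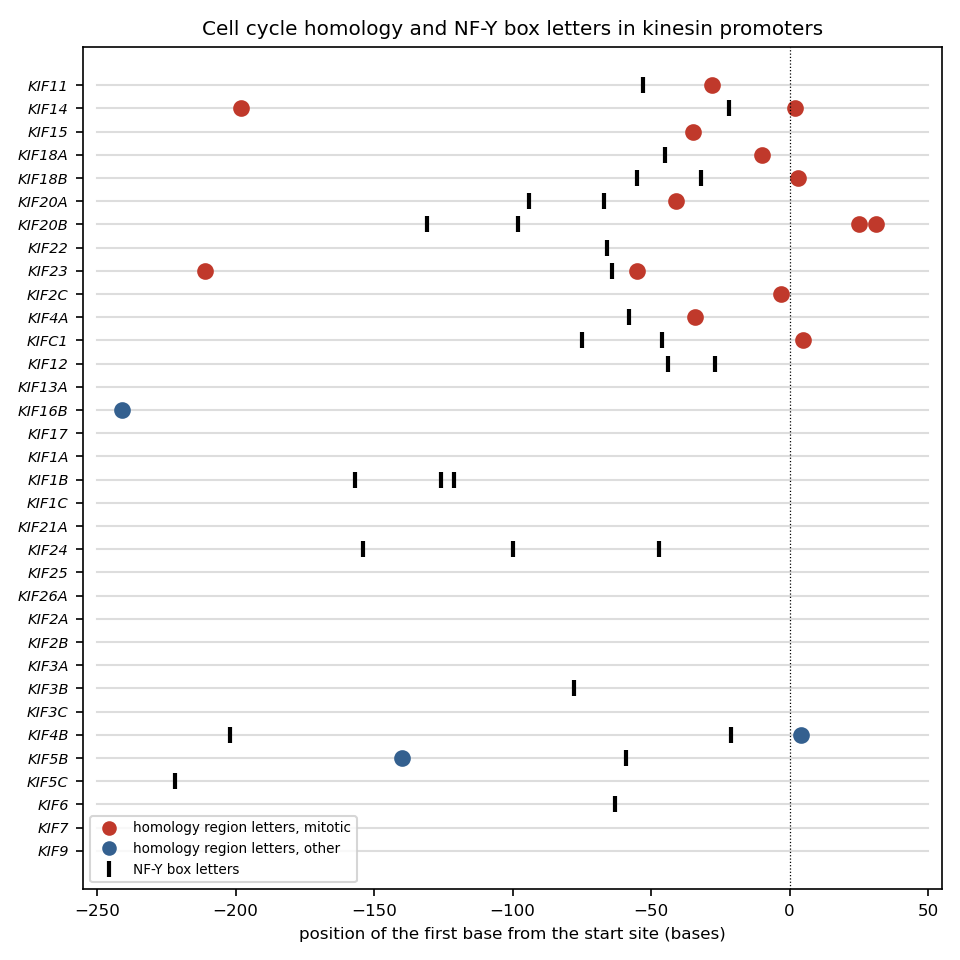
Position of the first base of each match from the start site (bases, horizontal axis, 250 before to 50 after) in the promoters of 12 mitotic and 22 other kinesins, with circles for the homology region letters (red mitotic, blue other) and black ticks for the NF-Y box. Promoters of a gene that has several share its line. The circle nearest the start lies within 60 bases of it in 11 mitotic genes, KIF14 and KIF23 have a further one at -198 and -211, and those of the others are at -241 (KIF16B), -140 (KIF5B) and 4 (KIF4B).

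In the fit to all 6 arrays, the highest difference among the other kinesins was that of KIF4B, an intronless copy of KIF4A. It was at 7.40, 7.64 and 7.07 with doxycycline and at 7.65, 7.70 and 7.88 without (0.37, SE 0.15, limma adjusted p = 0.390). With the array of doxycycline replicate 3 left out, the difference was 0.22, below those of KIF24 and KIF26A in that fit (0.23 and 0.24), and with each other array left out it was 0.30 to 0.51, highest when that of doxycycline replicate 2 was left out. The probe sets of the copies may share RNA, so the value of KIF4B is uncertain as that of a gene of its own. The copy extends into the promoter: around the homology letters 28 of 30 bases were equal, and 72 of 78 over a longer stretch, which carried CCAAT 24 bases upstream of the letters in both genes.
KIF4A, chrX:70290058-70290087, plus strand: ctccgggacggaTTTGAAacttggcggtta
KIF4B, chr5:155013746-155013775, plus strand: ctctgggagggaTTTGAAacttggcggtta

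Beside KIF4B, 3 of the other kinesins were higher at an unadjusted p below 0.05. KIF24, a centriolar kinesin that holds back cilium growth in cycling cells, was at 6.73, 6.64 and 6.72 with doxycycline and at 6.94, 6.92 and 6.89 without (0.22, SE 0.06, limma adjusted p = 0.242). KIF26A and KIF26B, atypical kinesins whose motor lacks ATPase activity, had differences of 0.20 and 0.15. KIF26A was at 7.11, 7.22 and 7.26 with and 7.45, 7.31 and 7.45 without, and KIF26B at 7.03, 7.01 and 7.06 with and 7.22, 7.18 and 7.14 without (limma adjusted p = 0.350 and 0.400). All 3 had separate groups and small differences.

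Among transport motors, KIF5C stood lowest. KIF5C is the neuron-enriched heavy chain of conventional kinesin (kinesin-1), which hauls mitochondria and vesicles down axons. It was at 6.64, 6.70 and 6.81 with doxycycline and at 6.05, 6.03 and 6.30 without, so each array without doxycycline lay below each with it. The difference was -0.59 (SE 0.10, 95% confidence interval -0.82 to -0.36, limma adjusted p = 0.0782) and was not called. Only 0.255% of named genes had a lower difference. With 1 array left out it stayed between -0.67 and -0.54, with a limma adjusted p of 0.127 or more.

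The other heavy chains of conventional kinesin had differences nearer 0. KIF5B, the ubiquitous one, was at 11.93, 11.85 and 11.88 with doxycycline and at 11.82, 11.85 and 11.91 without (-0.03, 95% confidence interval -0.18 to 0.12). KIF5A, also neuronal, was at 6.98, 7.37 and 7.04 with and at 6.90, 6.93 and 7.07 without (-0.16, 95% confidence interval -0.44 to 0.12), with overlapping groups. The log2 ratio of KIF5B to KIF5C was 0.56 higher without doxycycline and that of KIF5A to KIF5C 0.43 higher. Both ratios had separate groups and the smallest possible exact permutation p of 0.1 (two-sided).

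**Figure D4:**
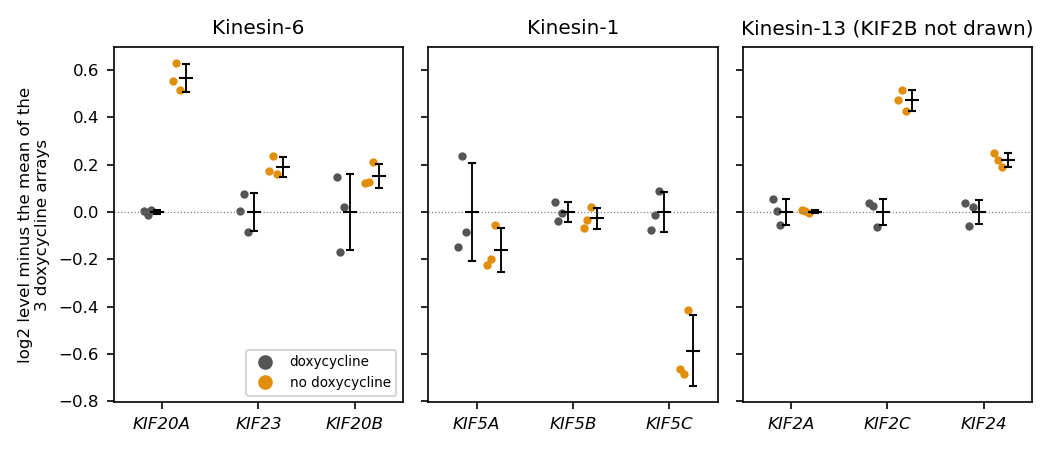
Log2 level minus the mean of the gene's 3 doxycycline arrays (vertical axis) in the kinesin-6, kinesin-1 and kinesin-13 families, with grey points for doxycycline arrays, orange points for arrays without it, and bars for mean and SD (n = 3). KIF20A (0.57), KIF2C (0.47) and KIF5C (-0.59) move away from 0 while KIF5B (-0.03) and KIF2A stay near it.

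The kinesin-13 family holds the mitotic KIF2C, KIF24 (0.22, above), KIF2A and KIF2B. KIF2A, a depolymerase of spindle poles that also prunes axon branches in neurons, was at 10.49, 10.44 and 10.38 with doxycycline and at 10.44, 10.44 and 10.43 without (95% confidence interval of the difference -0.15 to 0.15). The log2 ratio of KIF2C to KIF2A was 0.47 higher without doxycycline, with separate groups and the smallest possible exact permutation p of 0.1. KIF2B lay near the median probe set at 3.97 with and 3.96 without doxycycline.

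Vesicle motors of the kinesin-3 family had differences on both sides of 0. KIF1A, the carrier of synaptic vesicle precursors, was at 8.09, 8.21 and 8.21 with doxycycline and at 8.07, 8.01 and 8.12 without (-0.10), and KIF1B, its close relative, had a difference of -0.06. KIF1C, a carrier of Golgi-derived vesicles, was at 5.30, 5.06 and 4.91 with and at 5.01, 4.68 and 4.66 without (-0.31, 95% confidence interval -0.64 to 0.02), with overlapping groups. KIF16B, KIF13B and KIF13A were at -0.02, 0.05 and 0.06. The mitotic KIF14 was the single called member of that family.

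Kinesin-2 subunits, which serve cilia and axons, were close to 0 or slightly negative. KIF3A was at 8.21, 8.13 and 8.23 with doxycycline and at 8.11, 8.08 and 8.04 without (-0.11, limma adjusted p = 0.535), with groups that were just separate. KIF3B, KIF3C and KIF17 had differences of -0.12, 0.05 and -0.17. KIF7, the ciliary kinesin of Hedgehog signalling, was at 5.10, 5.21 and 5.05 with and 4.90, 4.93 and 5.01 without (-0.17, limma adjusted p = 0.399), and it was the other gene besides KIF5C that was lower at an unadjusted p below 0.05. KIF21A, which restrains microtubule growth in axons, was at 11.05, 11.03 and 10.99 with and 10.84, 10.93 and 10.91 without (-0.13, limma adjusted p = 0.463).

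The remaining others were KIF6, KIF9, KIF12, KIF19, KIF21B, KIF25, KIF27, KIFC2 and KIFC3, with differences of -0.01, 0.06, -0.10, 0.09, -0.11, 0.13, 0.01, -0.20 and -0.17. The dimmer probe sets of KIF27 were at 0.16 and 0.20, and that of KIF1B at 0.03. Except KIF27, these 9 lay below the median probe set, as did KIF13A and KIF17. Of the 10 other kinesins there, 0 had an unadjusted p below 0.05, and a change in them could easily be missed. The 20 above the median probe set had the same median difference as all 30, -0.02.

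Genes that work with the mitotic kinesins showed the same direction. Of 20 listed, 14 had a named probe set, all 14 had positive differences (median 0.27), 3 rose past limma's threshold and 0 fell, where 0.248% of all probe sets were called higher. They were PLK1, a mitotic kinase that docks on KIF20A (0.63, SE 0.08), HMMR, a spindle protein (0.56, SE 0.06), and AURKB, the kinase of the chromosomal passenger complex (0.55, SE 0.07). CDCA8, a further subunit of that complex, was at 0.57 (limma adjusted p = 0.0629). RACGAP1, the partner of KIF23 in centralspindlin, was at 0.12 and PRC1, the partner of KIF4A, at 0.24, neither of them called. The whole list, with PLK1, HMMR and AURKB, was chosen with earlier results of these data known. The direction of its members is therefore not independent evidence.

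Light chains and cargo adaptors of the transport motors had 0 calls among 14 measured of 20 listed, with 1 higher and 2 lower at a p below 0.05 before adjustment (median -0.03). Among named genes above the median probe set, 10.6% were higher and 9.72% lower at that level, and 0.248% of all probe sets were called higher. RHOT1 (Miro1), which ties mitochondria to kinesin-1, was at -0.33 (limma adjusted p = 0.163), MAPK8IP3 (JIP3) at -0.25, and MAPK8IP1 (JIP1) at 0.39 (limma adjusted p = 0.263). The light chains KLC1 and KLC2 were at -0.12 and 0.13, and KIFAP3, the third subunit of kinesin-2, lay at 7.98 in both groups. For dynein and dynactin, the opposite motor, 10 of 21 had a named probe set and 0 were called, with 2 higher and 1 lower before adjustment (median -0.03). NDE1, a dynein regulator with a role in mitosis, was at 0.34, DCTN3 at 0.24, NDEL1 at -0.22 and DCTN1 at -0.18. Of 20 axonal microtubule proteins 16 were measured and 1, DPYSL3 (CRMP4), rose (0.59, SE 0.07, limma adjusted p = 0.0414), with 3 higher and 3 lower before adjustment (median 0.06), to be read against the same shares. DPYSL2 was at 0.28, MAP7, a recruiter of kinesin-1 to microtubules, at -0.45, and DCLK1 and STMN2 at -0.29 and -0.23.

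Markers of other cells that a culture could hold had 0 calls. Immune (2 of 5 measured), endothelial (3 of 4) and Schwann markers (3 of 5) had no unadjusted p below 0.05. Averaged over the markers of a type, the 6 arrays ran from 3.35 to 3.65, 2.87 to 3.13 and 4.13 to 4.42. For the epithelial markers (3 of 4) that average ran from 3.97 to 4.30. Single markers differed from these averages: among the Schwann markers, S100B had a mean of 5.75 over the 6 arrays and ERBB3 of 3.21. LUM, the single fibroblast marker measured of 4, was bright, at 11.32 to 11.40 with doxycycline and 11.01 to 11.09 without. Its difference was -0.30, with a limma p of 0.0022 before adjustment and a limma adjusted p of 0.139. LUM ran opposite to the mitotic kinesins, and its part in the kinesin results was not tested.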

How the data were processed

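Log2 expression values per probe set of 6 Affymetrix whole-transcript arrays were used as deposited by the authors. Partek was used, per the submitters' processing notes. The sources used here do not give background correction, normalization, summarization or genome build. That the base is log2 was inferred from the range of the deposited values. Precision is limited by 3 arrays per group. The design text calls the samples independent but does not say that they came from separate cultures, so p-values measure the spread between these samples. Gene names came from GEO's annotation of the platform: 16098 of 53617 had 1 symbol, 0 several and 37519 none. All 42 kinesins were found in RefSeq with 0 changed symbols.

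All probe sets were fitted with limma 3.58.1 in R 4.3.3 (lmFit, eBayes, no filter, no covariate), with Benjamini-Hochberg adjustment over the table and a threshold of 0.05. The procedure was tested on simulated data. Lists are described by counts and medians, with no test of a list. Members and lists were chosen with earlier results of these data known. Every mitotic kinesin, and every other kinesin at an unadjusted p below 0.05, is given on each array. Of the remaining kinesins, KIF5A, KIF5B, KIF2A, KIF1A, KIF1C, KIF3A and KIF21A are also given on each array, chosen after their values were seen, and the others, like the genes of the 4 partner lists, by difference or mean. Beyond the rule, further members of these lists with known links to kinesins are named. Alternatives were quantile normalization, dropping dim probe sets, trend and robust moderation, a replicate block, leaving out each array, averaging the probe sets of a gene, and a wider mitotic group. A planned description of the proteins was not made, as no protein sequences were used here.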

Additional observations from a re-analysis of the deposited data

How the results depend on the processing

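All 12 mitotic kinesins stayed positive under quantile normalization, without dim probe sets, with trend and robust moderation, with the replicate block, with each array left out and with averaged probe sets. Their median minus that of the other kinesins, 0.37 in the main fit, was 0.38 after quantile normalization and 0.37 with averaged probe sets. With 1 array left out it was 0.38 to 0.43, highest without untreated replicate 1. With KIF2A, KIF3B, KIF4B and KIF24 counted as mitotic it was 0.38. In that wider group 15 of 16 differences were positive, the exception being KIF3B at -0.12. The count of called mitotic kinesins was less stable. It was 2 in the main fit, 3 after quantile normalization, 4 without dim probe sets (fewer probe sets tested) and 5 with trend and robust moderation, and 0 with any 1 array left out. With those settings the whole table held 183, 183, 311 and 385 calls, and 0 to 15 with 1 array left out. In every limma fit 0 of the other kinesins were called (0 also with each array left out), with 6 at an unadjusted p below 0.05 in the main fit.

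The labels do not say whether the replicate numbers pair the arrays. Deviations of same-numbered arrays correlated at -0.01, -0.01 and 0.04, and those of differently numbered arrays at -0.03 to 0.04. Not every array correlated best with its own number. With 3 arrays per group these values cannot settle whether a pairing exists. With the replicate block 0 mitotic kinesins and 0 probe sets were called, and KDM4C, still at 1.27, had a limma adjusted p of 0.118. With 1 array left out KDM4C lay between 1.24 and 1.29, with a limma adjusted p of 0.0311 to 0.0696. These calls are limited by having 3 arrays per group.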
